A study of Capra hircus with 2 samples.

Results

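The striated-muscle miRNAs of goat endometrium were taken as the known names whose number is miR-1, miR-133, miR-133a, miR-133b, miR-206, miR-208a, miR-208b, miR-499, miR-499a or miR-499b, with any species prefix, arm or end annotation. The rule found 7 distinct names among the 587 distinct known names listed, and among 1208 names when predicted candidates were counted too. Of the 10 numbers in the rule, 5 had a name (miR-1, miR-133, miR-133a, miR-208a and miR-499a). No name was listed for miR-133b, miR-206, miR-208b, miR-499 or miR-499b.

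Small RNA was sequenced from the endometrium of multiparous Xinong Saanen dairy goats aged 24 months, with estrus synchronized and natural mating. The pre-receptive library (P) came from gestational day 5 and the receptive library (R) from gestational day 15. Tissue was taken at the front wall of the uterine cavity, and within each phase the RNA of several goats was mixed into pools and sequencing was repeated. The deposited tables give 1 value per name and phase, treated here as 1 library each, so the spread within a phase could not be measured and every test below compares these libraries and not the phases.

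miR-1, miR-133, miR-206, miR-208 and miR-499 are often called myomiRs, since they are abundant in heart or skeletal muscle. miR-1 or miR-206 is transcribed together with a copy of miR-133, and miR-208 and miR-499 lie inside genes of myosin heavy chains. miR-1 and miR-206 promote differentiation of muscle cells, while miR-133 is known for effects on the proliferation of myoblasts and on serum response factor. The endometrium consists of epithelium, stroma, vessels and blood cells and rests on the smooth muscle of the myometrium, and striated muscle is not one of its usual components. The group is named for the tissues where these miRNAs are abundant. Which cells of the samples the reads came from was not tested.

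The mature sequences of the names that carry the results are given as deposited, 5′ to 3′, with the seed (bases 2 to 8, which pair with targets) in capitals.
hsa-miR-1_1ss1TC: cGGAATGTaaagaagtatgtat
hsa-miR-133a-5p: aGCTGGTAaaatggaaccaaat
oar-miR-133_L+1: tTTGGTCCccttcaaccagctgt
oar-miR-133_L+1R-2: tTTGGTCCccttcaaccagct
oar-miR-133, the sheep entry that represents both 3p forms: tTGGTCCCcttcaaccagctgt
hsa-miR-499a-5p: tTAAGACTtgcagtgatgttt
hsa-miR-499a-3p_R+1: aACATCACagcaagtctgtgctg
cfa-miR-208a_R-1: aTAAGACGagcaaaaagcttg

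The 7 names had 6 distinct seeds. The 2 forms of the 3p arm of miR-133 shared theirs and differed in length, 23 nt for oar-miR-133_L+1 and 21 nt for oar-miR-133_L+1R-2. Both have 1 more base at the 5′ end than the sheep entry, which moves the seed from TGGTCCC to TTGGTCC. The listed form of miR-1 differs from its human representative by T1C, counted from the 5′ end of the representative, and this base lies outside the seed. The seeds of cfa-miR-208a_R-1 and hsa-miR-499a-5p have 6 of 7 bases in common and differ by G8T, with the base of miR-208a first. No other listed name, known or candidate, had the seed of a member or that of the sheep miR-133 entry. Since miR-206 has the seed of miR-1, this also covers names of another number with the miR-206 seed. The mature 3p sequences of miR-133a and miR-133b differ at the 3′ end, which the shorter form lacks, so its reads cannot be assigned to one of them.

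The level of each name is given as normalized expression (NE), the deposited signal, and as reads recovered from it. A read was worth 0.860 NE in R and 1.16 NE in P. Reads that fit several precursors are divided among their entries, which gives fractions of a read, and the reads of a name were summed over its entries while NE is that of 1 entry. The known names held 1904242 reads in R and 4046632 in P. The libraries were amplified by PCR and carried no molecular identifiers, so that reads are not counts of molecules and every interval and limit here covers counting error only.

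oar-miR-133_L+1, the most abundant of these names, had 3558 NE in P and 144.9 NE in R. Summed over its 2 entries these were 6119 reads in P (95% exact Poisson interval 5967 to 6274) and 337 reads in R (302.0 to 375.0). It ranked 34 among the 587 known names in P and 114 in R by reads. Its level was thus far higher in the library of day 5, and the intervals of the libraries were well apart.

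hsa-miR-499a-5p, encoded within a myosin gene and known from slow muscle fibres and heart, came next in both libraries. It had 130.3 NE in P, from 112 reads (92.2 to 134.8), and 63.6 NE in R, from 74 reads (58.1 to 92.9). As a share of the reads of known names, the order of the libraries was the opposite, with 0.00277% in P and 0.00389% in R. Its place between the libraries therefore depended on the scale.

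The shorter form oar-miR-133_L+1R-2 had 64.5 NE in P and 0.430 NE in R, from 55.5 reads and 0.5 reads. hsa-miR-1_1ss1TC had 20.9 NE in P and 0.430 NE in R, from 36 reads (25.2 to 49.8) and 1 read (0.0253 to 5.57). hsa-miR-133a-5p, the other arm of the miR-133 hairpin, had 19.8 NE in P and 0.430 NE in R, from 34 reads (23.5 to 47.5) and 1 read. These 3 names were at or under 1 read in R and between 34 and 55.5 reads in P. In P, hsa-miR-1_1ss1TC and hsa-miR-133a-5p could not be ordered (exact binomial P = 0.905 with summed reads and P = 1 with those of 1 entry). By 1 entry the shorter miR-133 form had 55.5 reads, tested as 56, beside 18 and 17 and was higher than either (exact binomial P = 3.33e-05 and P = 3.16e-05 after Benjamini-Hochberg adjustment over 6 tests). With summed reads it was not told apart from them after this adjustment (exact binomial P = 0.0705 and P = 0.0526), so that its place depended on the way of counting. The summed counts are not like for like. The shorter form has 1 listed entry with fractions of a read, so part of its reads appears to lie in an entry that is not listed.

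The last 2 names were at the limit of detection. hsa-miR-499a-3p_R+1 had 1 read in each library. cfa-miR-208a_R-1, whose known source is cardiac muscle, had 1 read in P and 0 reads in R, where a count of 0 has a one-sided 95% limit of 3 reads, or 2.58 NE, and a two-sided 95% exact Poisson interval up to 3.69 reads. cfa-miR-208a_R-1 has no ratio. hsa-miR-499a-3p_R+1 was among the names tested, but its ratio rests on 1 read in each library and no change is read from it. In R, 5 of the 7 names had at most 3 reads and could not be ordered among themselves.

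**Figure D1:**
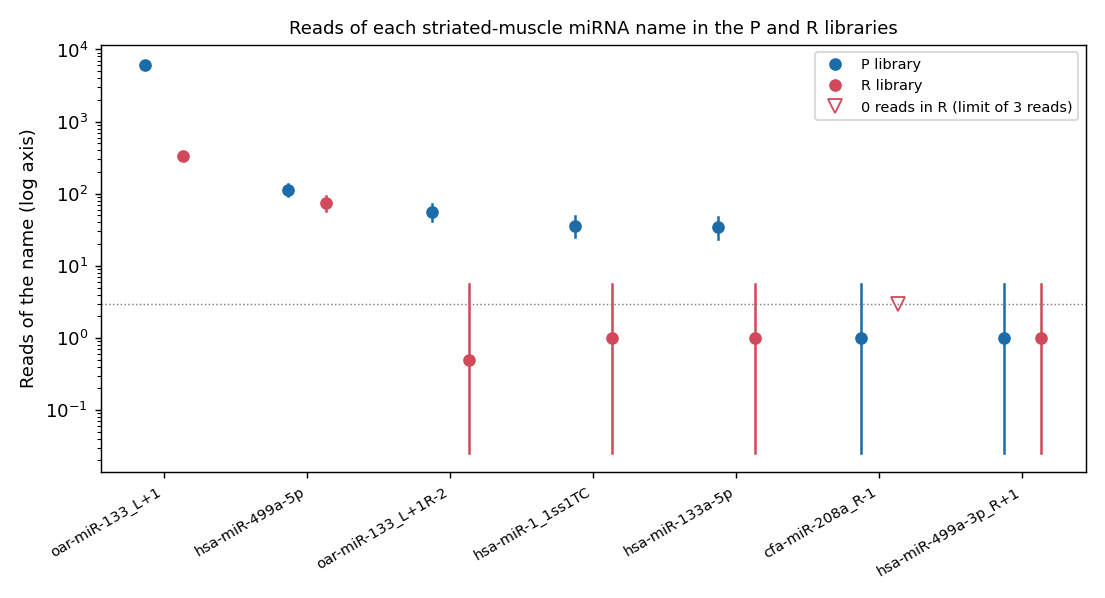
Reads of each of the 7 striated-muscle names (horizontal axis) in the P library (blue) and the R library (red), on a log axis. Points are reads summed over the entries of a name and bars are 95% exact Poisson intervals of the rounded reads, and the open triangle marks 0 reads at the limit of 3 reads (dotted line). oar-miR-133_L+1 stands at 6119 reads in P and 337 in R, and only it and hsa-miR-499a-5p exceed 10 reads in R.

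Summed over all 7 names, NE was 3796 in P and 210.7 in R, a log2 ratio of R to P of -4.17. The names held 6358.5 reads in P and 414.5 in R, or 0.157% of the reads of known names in P (95% exact Poisson interval 0.153% to 0.161%) and 0.0218% in R (0.0197% to 0.0240%). The sum was that of miR-133 for the most part, which took 97.6% of these reads in P and 81.7% in R. Without oar-miR-133_L+1 the summed NE was 237.8 in P and 65.8 in R, with a log2 ratio of -1.85. Less RNA per cell and fewer cells that contain these miRNAs cannot be told apart in tissue RNA.

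To ask which names differed between the libraries, the reads of each name were compared with the remaining clean reads by Fisher's exact test (two-sided). A name was called when the P-value was under 0.05 and the log2 ratio of NE was beyond 1 in size, among 564 known and candidate names with NE above 0 in both libraries and at least 1 NE in 1 of them. Of the 7 striated-muscle names, 6 could be tested, and 4 of them were called lower in R and 0 higher. The 4 were miR-1 and 3 names of miR-133. The miR-133 names are arms or forms of the same miRNA, and miR-1 is transcribed with a copy of it. They are therefore not 4 separate results. Among all names tested, 40 were called lower, or 7.09%, and 103 higher, or 18.3%. By the log2 ratio alone, 5 of the 6 lay under -1 and 0 above 1, beside 102 (18.1%) and 129 (22.9%) of all names tested. The same 4 names were called with P-values adjusted by the Benjamini-Hochberg method over all 564 names, where 34 names or 6.03% were called lower. The 95% exact interval of the log2 ratio lay wholly under -1 for these 4 names, and for 30 or 5.32% of all names tested.

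The log2 ratio of oar-miR-133_L+1 was -4.62 (95% exact Clopper-Pearson interval -4.78 to -4.46), a 24.6-fold lower NE in R (22.0-fold to 27.5-fold), and its P-value was too small to be represented. Of the 296 names with at least 10 reads in each library, 0 had a lower log2 ratio. The log2 ratio of oar-miR-133_L+1R-2 was -7.23 (-17.24 to -3.95), with P = 2.73e-13 in Fisher's exact test. That of hsa-miR-1_1ss1TC was -5.61 (-10.95 to -3.04, exact P = 2.67e-08), and that of hsa-miR-133a-5p was -5.52 (-10.87 to -2.95, exact P = 4.84e-08). The size of these 3 ratios rests on at most 1 read in R, which the width of the intervals shows. These 4 names had the 4 lowest log2 ratios of the 564 names tested. Names at 0 in R are not among the 564, such as the candidate PC-5p-66825_11 with 18 reads in P. With reads under 3 set to 3 in every name tested, the 4 names ranked 1, 2, 4 and 5 from the lowest. hsa-miR-767-5p_R-3 at -4.47 then lay under hsa-miR-1_1ss1TC at -4.02 and hsa-miR-133a-5p at -3.94. The median log2 ratio of the 6 names tested was -5.07, beside -0.07 over all 564. For the 5 names with at least 10 reads in a library it was -5.52, or -4.02 with libraries under 3 reads set to 3 reads, beside 0.11 over the 369 names under the same filter, with or without that limit. Of these 5 names, 3 passed that filter through P alone, where they are high, so these medians describe the names and are in part set by the filter.

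**Figure D2:**
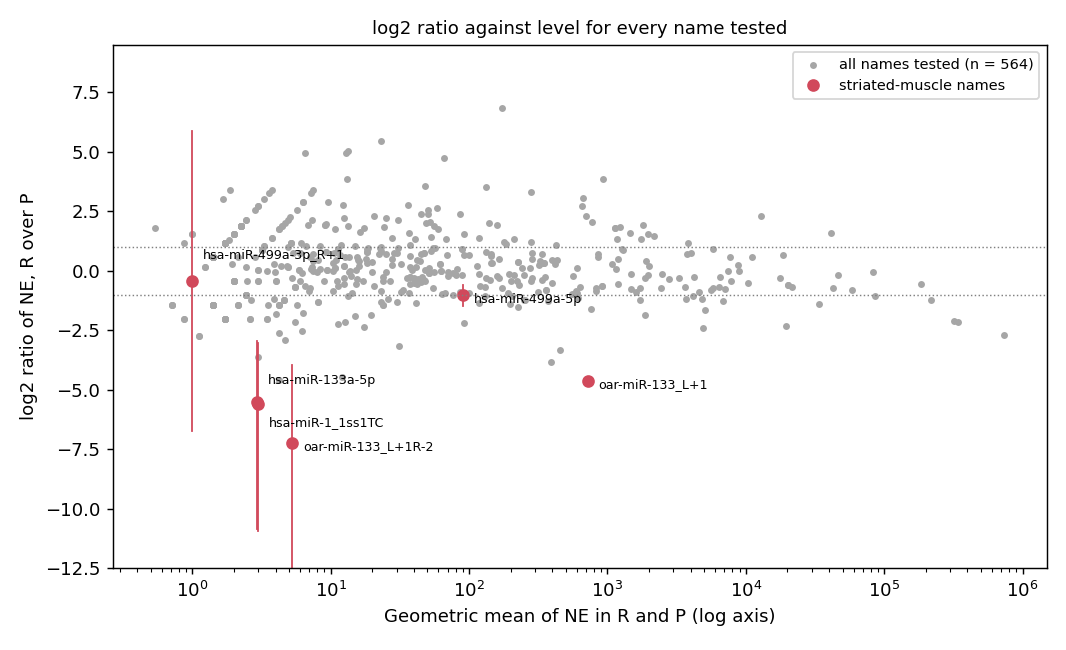
log2 ratio of NE in R over P (vertical axis) against the geometric mean of NE in the libraries (log axis) for the 564 names tested (grey), with the 6 striated-muscle names tested in red and their 95% exact intervals as bars. Dotted lines mark log2 ratios of -1 and 1, the bar of oar-miR-133_L+1R-2 runs past the lower edge, and oar-miR-133_L+1 at -4.62 lies under every grey point of similar level.

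hsa-miR-499a-5p was not called. Its log2 ratio was -1.03 (95% exact interval -1.48 to -0.60), and Fisher's exact test, whose expectation follows the clean reads, gave P = 0.268. With the expectation set by NE instead, the exact binomial test gave P = 1.63e-06 and would call it, and called 55 names or 9.75% of all names lower. Scaled to the clean reads its log2 ratio was -0.25, and scaled to the listed reads it was 0.48, so that the sign depended on the scaling. Relative to the median of all names its log2 ratio was -0.96 on every scale.

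The scaling applied to all names alike. The median log2 ratio of all names tested was -0.07 with NE, 0.71 with reads divided by the clean reads and 1.45 with reads divided by the reads of all listed names, shifts of 0.78 and 1.52. The calls were then 22 lower (3.9%) and 180 higher (31.9%) with the clean reads, and 12 lower (2.13%) and 233 higher (41.3%) with the listed reads, so that the share of calls that were higher rose from 72.0% to 89.1% and 95.1%. Fisher's exact test used the clean reads on every scale, so only the log2 ratio moved and the P-values did not. The 4 striated-muscle names were called lower under both, and oar-miR-133_L+1 had log2 ratios of -3.84 and -3.10. Relative to the median of all names, its log2 ratio was -4.55 on every scale.

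**Figure D3:**
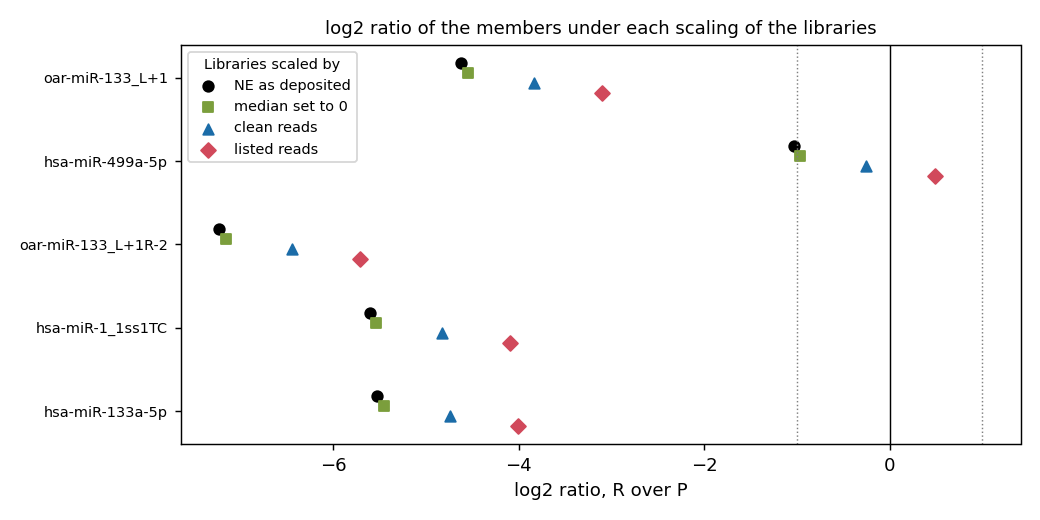
log2 ratio of R over P (horizontal axis) of the 5 striated-muscle names with more than 3 reads in a library, with the libraries scaled by NE as deposited (circles), by setting the median of all names to 0 (squares), by the clean reads (triangles) or by the listed reads (diamonds). The 3 miR-133 names and miR-1 stay under -1 on each scale, whereas hsa-miR-499a-5p runs from -1.03 to 0.48.

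Ratios within a library do not depend on this scaling. There were 54.6 reads of oar-miR-133_L+1 for each read of hsa-miR-499a-5p in P and 4.55 in R. These ratios set the summed reads of 2 entries of oar-miR-133_L+1 against 1 entry of hsa-miR-499a-5p. Counted by 1 entry, both are lower by the same factor. The log2 ratio of oar-miR-133_L+1 was lower than that of hsa-miR-499a-5p by a difference of -3.58 (95% exact conditional interval -4.05 to -3.11), with P = 2.56e-42 in Fisher's exact test after Benjamini-Hochberg adjustment over 9 pairs, a set chosen after the data had been seen. These names therefore differed in their change between the libraries by more than counting error. The difference from hsa-miR-1_1ss1TC was 0.99 (-1.59 to 6.33), that from hsa-miR-133a-5p was 0.90 (-1.68 to 6.25) and that from oar-miR-133_L+1R-2 was 2.61 from 0.5 reads in R. The interval of the last, -0.92 to 6.96, rests on reads rounded up, whose own difference is 1.62. All 3 intervals include 0 and are wide, so that a difference was not detectable at the depth of 1 read or less in R.

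The arms and forms of the same hairpin were compared in the same way. Of the miR-133 reads, 34 of 6209 in P (0.548%, 95% exact interval 0.380% to 0.764%) and 1 of 339 in R (0.295%, 0.00747% to 1.63%) came from the 5p arm. The shorter 3p form, with 55.5 reads in P and 0.5 in R, made up 0.899% of the 3p reads in P and 0.148% in R. The intervals and tests of shares used whole reads, and with fractions rounded up to 56 and 1 the intervals were 0.686% to 1.18% in P and 0.00749% to 1.64% in R, with P = 0.368 in Fisher's exact test, or P = 0.116 with fractions rounded down. The 3p arm of miR-499a had 1 of 113 reads in P and 1 of 75 in R. Counted by 1 entry of a name, since oar-miR-133_L+1 and hsa-miR-133a-5p have 2 entries and the shorter form 1, the shorter form made up 1.78% in P and 0.296% in R (exact P = 0.366 with fractions rounded up and P = 0.114 with them rounded down). Counted in that way the 5p arm made up 0.543% in P and 0.295% in R, where it had 0.5 reads, the same order as with summed reads. With fractions rounded up it had 1 of 170 reads in R, or 0.588%, and the order turned (Fisher's exact P = 0.615). With fractions rounded down, Fisher's exact test gave P = 1. In both hairpins 1 arm held nearly all reads in both libraries, the 3p arm in miR-133 and the 5p arm in miR-499a. With summed reads, Fisher's exact test gave P = 1 for the arms of each hairpin, and the P-values adjusted over the 4 shares tested, of which 1 leaves out the shorter form, were all 1 with fractions rounded up. For each share and each way of counting, the interval of R from reads rounded up includes the share of P.

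Outside the striated-muscle names, the 5 names with at least 10 reads in each library whose log2 ratio was nearest to that of oar-miR-133_L+1 were taken from 294 names. The nearest was bta-miR-490_R+1, which had 1465 NE in P and 103.2 NE in R. Its log2 ratio was -3.83 (-4.11 to -3.56). It was followed by bta-miR-335_R-1 at -3.32 and hsa-miR-490-5p at -3.17. aja-miR-143_1ss22GT and cfa-miR-145 came next at -2.69 and -2.42. Since 0 of the 294 names had a lower ratio than oar-miR-133_L+1, these are also their 5 lowest ratios. They lay 0.79 to 2.20 above that of oar-miR-133_L+1 on the log2 scale, with exact intervals that did not overlap with its interval.

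Lists of miRNAs known from other cell types of the tissue were read beside these results. The lists were chosen with earlier results of these data known, so their counts of calls describe the names and are not a test. On the smooth muscle list, bta-miR-490_R+1, hsa-miR-490-5p, aja-miR-143_1ss22GT and cfa-miR-145 are among the low ratios given above. All 6 smooth muscle names (miR-143, miR-145 and miR-490) had at least 10 reads in each library and were called lower in R with NE, beside 10.8% of the 369 names with at least 10 reads in a library. Of them, 4 were called with the clean reads and 3 with the listed reads, beside 5.96% and 3.25% of these 369 names. With the listed reads hsa-miR-143-5p_1ss22TA turned to a log2 ratio of 0.24. Their median log2 ratio was -2.55, and their summed NE was 1881083 in P and 292542 in R. Their most abundant name was aja-miR-143_1ss22GT, with 1866274 NE in P and 289634 NE in R, and 0 names of the list were at 0. The log2 ratio of oar-miR-133_L+1 was lower than that of aja-miR-143_1ss22GT by a difference of -1.93 (95% exact conditional interval -2.09 to -1.77), a difference beyond counting error. The part of smooth muscle content in the lower level of the striated-muscle miRNAs was not tested.

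The epithelial list moved the other way. Of its 16 names, 11 had at least 10 reads in a library, and all 11 were called higher in R on each of the 3 scales, with a median log2 ratio of 3.26 with NE. Under the same filter, 91 of 369 names or 24.7% were called higher with NE, 45.5% with the clean reads and 59.9% with the listed reads. Of the 11 names, 4 had under 10 reads in P and passed the filter through R alone, and the other 5 names of the list were not called. The summed NE was 6977 in P and 38573 in R, with hsa-miR-141-3p_R-1 the most abundant at 5791 NE in P and 28337 NE in R. miR-200b had no name, and 3 names of minor arms, of miR-182, miR-183 and miR-203, were at 0 in P. The part of epithelial content in the lower level of the striated-muscle miRNAs was not tested.

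The other lists lay closer to the median of all names. The 7 stromal fibroblast sequences (miR-199a, miR-199b and miR-214) had a median log2 ratio of -0.05 and a summed NE of 97155 in P and 97321 in R, with 0 called. Their most abundant name was oar-miR-199a-3p, with 84822 NE in P and 82015 NE in R. Of the 5 blood cell sequences with at least 10 reads, 2 were called higher and 0 lower, with a median of 0.35 and a summed NE of 11459 in P and 11694 in R over the whole list. miR-150 had no name, miR-451 was listed under its pig name ssc-miR-451_L+3R-1 with 1 read in P and 2 in R, and the miR-223 name was at 0 in P with 1 read in R. The 3 endothelial sequences of miR-126 with at least 10 reads had a median of 0.58, with 0 called, and the list had a summed NE of 21287 in P and 32841 in R, led by hsa-miR-126-5p with 14955 NE in P and 23369 NE in R. With the clean reads and the listed reads these medians moved up with that of all names, that of the stromal list to 0.73 and 1.47, and more names were called higher. With the clean reads these were 2 of the 7 stromal, 3 of the 5 blood cell and all 3 endothelial sequences, beside 45.5% of the 369 names under the same filter, and with the listed reads 5, 3 and 3, beside 59.9%.

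Among other miRNAs enriched in muscle, miR-378 had no name. miR-486, which is known from both muscle and red blood cells and stands on both lists, was listed as cgr-miR-486-5p. By NE it was the most abundant blood cell name in P, while cgr-miR-142-5p_L-2R+1 was higher in R, with 2524 NE in P and 5689 NE in R. cgr-miR-486-5p had 8073 NE in P and 5052 NE in R, a log2 ratio of -0.68 (95% exact interval -0.73 to -0.63) that did not pass the limit of 1 and turned to 0.11 with the clean reads and 0.84 with the listed reads. The log2 ratio of oar-miR-133_L+1 was lower than that of cgr-miR-486-5p by a difference of -3.94 (95% exact conditional interval -4.11 to -3.77). The differences from the names with the highest NE in P of the stromal, endothelial and epithelial lists were -4.57, -5.26 and -6.91.

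**Figure D4:**
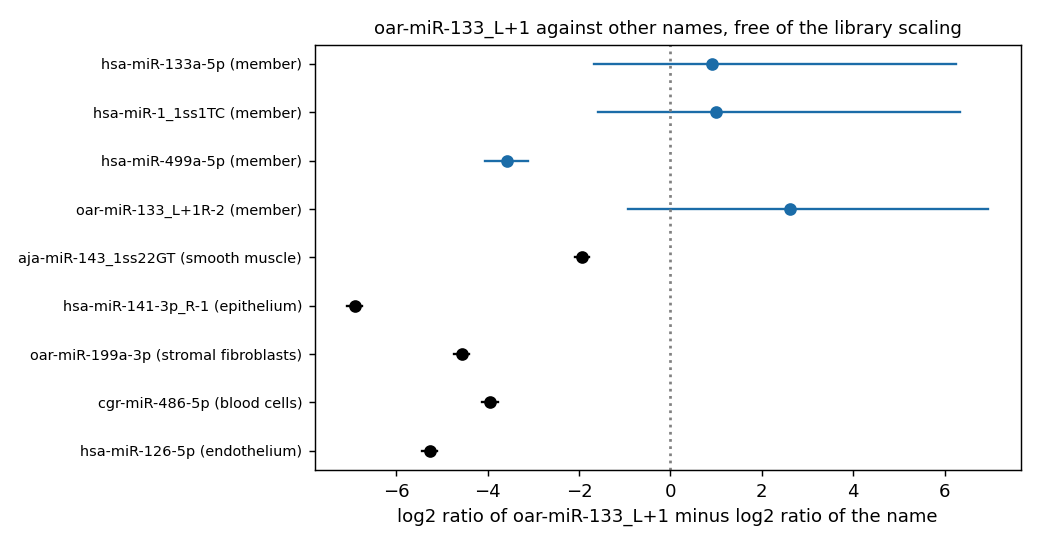
Difference between the log2 ratio of oar-miR-133_L+1 and that of another name (horizontal axis), for 4 striated-muscle names (blue) and the name with the highest NE in P of 5 other cell type lists (black), with 95% exact conditional intervals as bars. The point of oar-miR-133_L+1R-2 is from 0.5 reads in R and its bar from 1 rounded read. The intervals of the other miR-133 names and miR-1 include 0, and those of hsa-miR-499a-5p and of the 5 other names lie under 0.

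**Figure D5:**
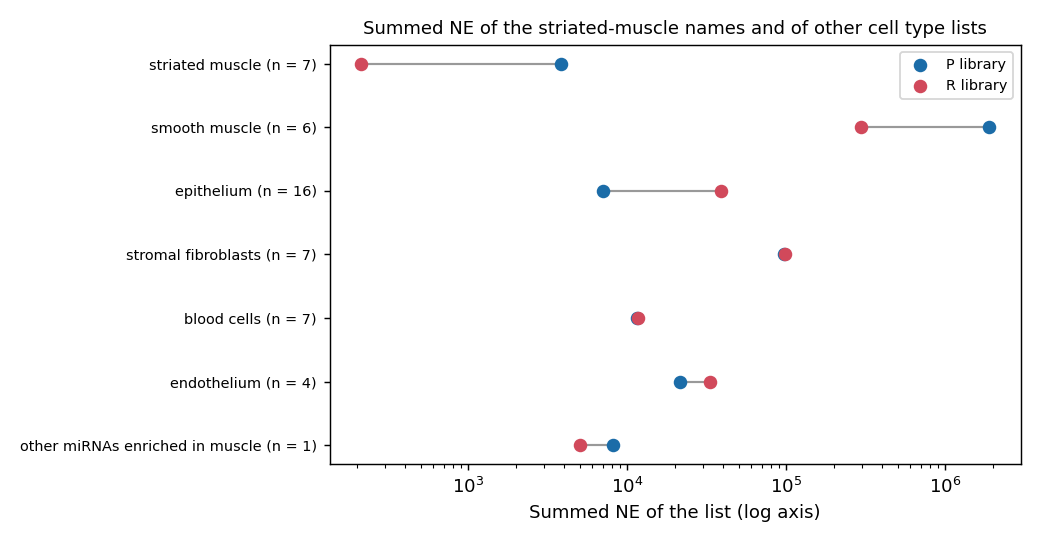
Summed NE of the striated-muscle names and of each other cell type list in the P library (blue) and the R library (red), on a log axis, with n the number of distinct sequences. By this measure, with 1 entry per name, the striated-muscle sum is the lowest of the lists in both libraries, 3796 in P and 210.7 in R, and the smooth muscle sum the highest. With summed reads the epithelial list is lower in P, at 0.148% of the reads of known names beside 0.157%.

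In the RefSeq gene table of the goat assembly ARS1.2, MIR1 and MIR133A are adjacent entries, as are MIR133B and MIR206. MIR499 lies within MYH7B, and MIR208B lies within LOC102181869. Both miR-1 and the arms of miR-133 were among the names called lower, while the mature miRNA of MIR499 was not. The shorter miR-133 form does not separate the copy beside MIR1 from that beside MIR206, and no miR-206 name was listed.

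The conservation table of the study lists precursor names for 23 species. A miR-133 precursor was listed for 15 species, miR-499 for 14, miR-1 for 11 and miR-208 for 8, and miR-206 for 0. A miR-133b precursor was among those of 10 species, although the table of known miRNAs has no name of that number. These are matches of sequence and involve no comparison between the libraries.

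The deposited target predictions cover 142 miRNA names, with 87779 pairs and 7608 distinct target identifiers, and 5 of the 7 striated-muscle names are among them. hsa-miR-133a-5p had 649 predicted targets, hsa-miR-1_1ss1TC 613, oar-miR-133_L+1 485, oar-miR-133_L+1R-2 471 and hsa-miR-499a-5p 400, beside a median of 578.5 over all 142 names. For oar-miR-133_L+1 the study prints a larger number of targets than the deposited list holds. The counts and overlaps given here refer to the deposited lists. All 471 targets of the shorter miR-133 form were among the deposited targets of oar-miR-133_L+1, of which they made up 97.1%. Since both have the same seed, this holds largely by construction.

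Lists of names with different seeds overlapped in part. hsa-miR-1_1ss1TC and oar-miR-133_L+1 had 82 targets in common, 13.4% of the former list and 16.9% of the latter. hsa-miR-1_1ss1TC and hsa-miR-499a-5p had 73 in common, 11.9% and 18.2% of their lists. The arms of miR-133, hsa-miR-133a-5p and oar-miR-133_L+1, had 72 in common, 11.1% and 14.8%. hsa-miR-133a-5p had 80 in common with hsa-miR-1_1ss1TC, 12.3% and 13.1%, and 61 with hsa-miR-499a-5p, 9.40% and 15.2%. The fewest, 49, were shared by hsa-miR-499a-5p and oar-miR-133_L+1, 12.2% and 10.1%. Over all 10011 pairs of names in the table, the median overlap was 18.1% of the smaller list. With the shorter miR-133 form left out, the other 4 lists together held 1780 identifiers, 23.4% of all, of which 1462 were on 1 list and 318 on several. An identifier on these lists was predicted for a median of 18 names of the table, beside 8 over all identifiers. Of the 1780, 98.5% were also predicted targets of a name called higher in R, as were 96.4% of all identifiers. Identifiers predicted for many names are more likely to be on any list, so both higher values hold in part by construction. The identifiers matched 0 gene identifiers of the goat gene table used here, and no target is named.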

How the data were processed

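The authors removed adapters, low-quality reads and other RNA families and matched the rest to miRBase and the goat genome. The deposited values are a normalized signal (NE), in which reads are scaled by 1 factor per library. Fold ratios and P-values that the authors deposited were not used. In the candidate table the library labels were exchanged, since all 70 candidates shared with the table of differential expression then had equal values (within 0.006 NE) and 0 under its own labels. Whole reads (within 0.01) were recovered for 85.2% of known names above 0 in R and 87.5% in P. Reads were rounded for the tests, and the clean read totals stated by the study were the denominators of Fisher's exact test. Targets were those predicted by both programs of the study.

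Named miRNAs were all members, the name of each list with the highest NE in P, the 5 nearest ratios and names with a member's seed. A few further names are given where they bear on a rank, a sign or the content of a list. Members and lists were chosen with earlier results of these data known. Alternatives covered scalings, pseudocount, filters, tests and ways of counting. Calls and intervals were tried on simulated reads with counting error alone. Such reads cannot tell how the calls behave under spread between goats, pools or libraries. Tests were run with scipy 1.17.1 on Python 3.11.15, tables were handled with pandas 2.3.3 and numpy 2.4.6, and plots were drawn with matplotlib 3.10.9.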

Additional observations from a re-analysis of the deposited data

How the results depend on the processing

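Only 1 value per phase was analysed, so the spread between goats or pools is unknown, and the depth of 1 read or less in R limits the ratios of miR-1, hsa-miR-133a-5p and the shorter miR-133 form. No paired analysis was possible because each phase has 1 deposited value per name. oar-miR-133_L+1, oar-miR-133_L+1R-2, hsa-miR-1_1ss1TC and hsa-miR-133a-5p kept their direction and their call under all 7 alternatives run for each, with oar-miR-133_L+1 between -4.62 and -3.10. hsa-miR-499a-5p had a log2 ratio of 0.48 with the listed reads, and its -1.03 was called by the exact binomial test (P = 1.63e-06), whose expectation follows NE and not the clean reads. Calls over all names were 40 lower and 103 higher, 22 and 180 with the clean reads and 12 and 233 with the listed reads. These scalings moved the log2 ratios and left the P-values unchanged. The log2 ratio of the summed NE was -1.85 without oar-miR-133_L+1 and -4.37 with every entry of a name summed, beside -4.17. As a share of known reads, which also sums every entry, it was -2.85. For the 5 members with at least 10 reads in a library the median was -5.52. Setting libraries under 3 reads to 3 reads, chosen after seeing the data, gave -4.02, while the median of the 369 names under the same filter was 0.11 both ways. Of these 5 members, 3 passed that filter through P alone, where they are high, so their medians are in part set by the filter. Scaled to the clean reads, the medians of the other lists were -1.77 (smooth muscle), 4.05 (epithelium), 0.73 (stroma), 1.13 (blood), 1.36 (endothelium) and 0.11 (other muscle), and scaled to the listed reads -1.03, 4.78, 1.47, 1.87, 2.10 and 0.84, which is the shift of all names. Ratios of summed NE were -2.68, 2.47, 0.0025, 0.029 and 0.63 for the first 5 lists. Without a filter on reads the medians were 3.04 for epithelium, 0.46 for blood and 0.52 for endothelium. Counting targets by transcript was not run, because the transcript column lists each of the 7608 target identifiers once and does not pair them with the miRNA of the row.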
